A study of Mus musculus with 32 samples.

Results

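The frontal cortex of 8 mice inoculated with the gut microbiota of squirrel monkeys (Saimiri boliviensis) was compared with that of 12 mice inoculated with macaque microbiota (Macaca mulatta). These 20 mice were all those labelled with either donor among 32 mice, the other 12 having received human microbiota. RNA came from the prelimbic and infralimbic areas of the medial frontal cortex, and the labels give neither strain, age nor prior microbial status of the hosts. The labels place squirrel monkey mice in batches C and D (4 mice each) and macaque mice in batches E (5 mice) and F (7 mice). By their names, the libraries of squirrel monkey mice filled plate column 3 and those of macaque mice columns 4 and 5. Donor, batch and plate position cannot be told apart here, and every difference below is one between batches as well. Nothing in the labels says that mice of a batch had separate cages or separate donor samples. The p-values therefore measure only the spread between mice, which may be technical. In the main test that spread was estimated over all 32 mice, those with human microbiota included.

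Gut bacteria can reach the brain through metabolites, immune signals, the vagus nerve and adrenal hormones, and animals raised without microbes differ from colonised ones in cortical myelin genes and in stress hormone responses. The medial frontal cortex of the mouse holds layered excitatory neurons, interneurons and glia. The genes followed here belong to the machinery these cells share, above all the ribosome, and to sets that mark cortical layers, synapses, ion channels and glia.

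Libraries were made by TagSeq, which counts reads near the 3′ end of transcripts, so that a gene's count does not grow with its length. Total counts ran from 1193113 to 1588716 per mouse in the squirrel monkey group and from 1035036 to 1673882 in the macaque group. Levels are in CPM. For genes tested, each count was taken relative to the scaled total of its library. For the markers in this paragraph and for sums of whole lists, each count was taken relative to the unscaled total. All 20 libraries carried the excitatory marker Slc17a7 (336 to 453 CPM in squirrel monkey mice, 305 to 463 in macaque mice) and the interneuron marker Gad1. Tbx21, a marker of the olfactory bulb, was at 0 in 7 of 8 squirrel monkey mice and in 12 of 12 macaque mice, and the striatal marker Adora2a reached at most 1.52 CPM. Cdhr1, another olfactory bulb marker, was present, at 0.67 to 9.59 CPM in squirrel monkey mice (median 5.21) and 0 to 18.5 CPM in macaque mice (median 5.01). The thalamic markers had medians of 16.9 CPM (Tcf7l2) and 12.1 CPM (Prkcd) in squirrel monkey mice, and of 14.8 and 7.67 CPM in macaque mice. The choroid plexus marker Ttr was at 0 in 1 squirrel monkey mouse and in 4 macaque mice, and reached 55.3 CPM in a squirrel monkey mouse and 45.2 CPM in a macaque mouse.

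Of 12651 genes tested, 49 were higher and 32 lower in squirrel monkey mice (0.64% of genes called, 0.387% higher and 0.253% lower; edgeR quasi-likelihood test, Benjamini-Hochberg adjusted p below 0.05). Among the 49 were 23 genes of the cytoplasmic ribosome, the synaptic vesicle gene Syn1, the zinc finger gene Zfp101 and the growth factor gene Igf2. The 32 lower genes included channel and receptor genes (Scn7a, Hcn4, Cacna1g, Grin3a, Cnr1), the transcription factor gene Neurod6 and the signalling regulator Rgs4. The median absolute log2 fold change of the 81 genes was 0.64, and 14 of them reached 1. For every one of the 81, both squirrel monkey batch means lay on the same side of both macaque batch means, which held for 43.3% of all genes tested. The 8 and 12 mice did not overlap at all for 3 of them (0.0237% of genes tested), Syn1, Zfp101 and Rps16. Exons of 21 of the 81 overlap a gene on the opposite strand, Igf2, Txnip, Rab3b, Ace, Ppp2r1b, Sorcs1, Ampd2 and Dysf among them, and their counts are uncertain, since it is not known whether counting used strand.

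**Figure D1:**
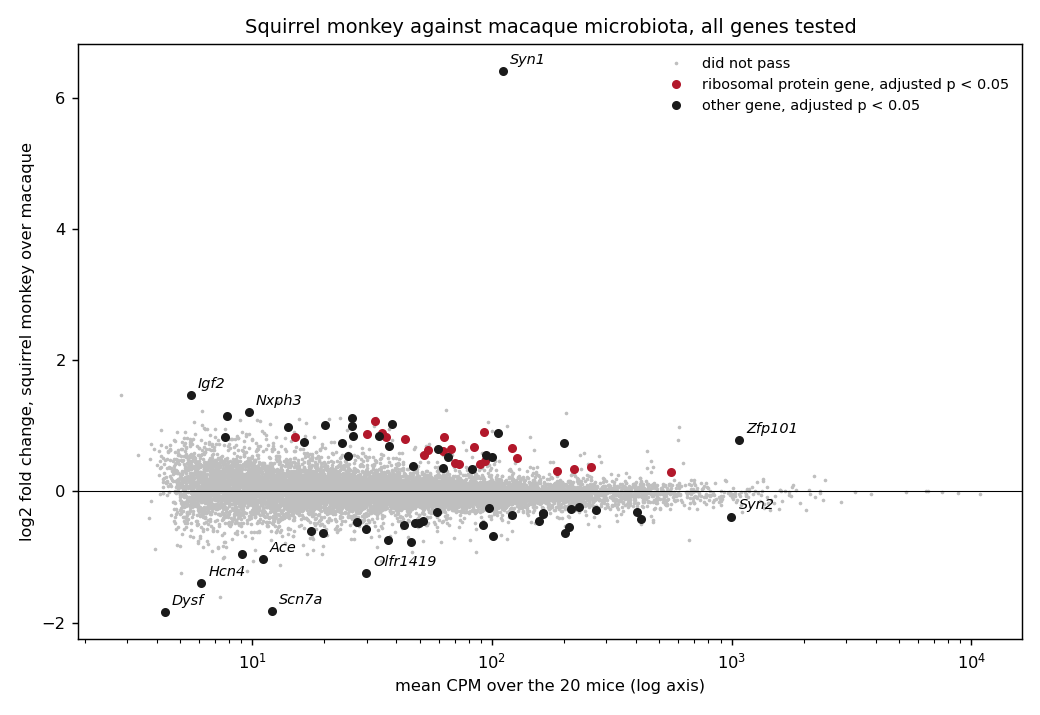
Each point is 1 of the 12651 genes, with its mean over the 20 mice in CPM (log axis) against its log2 fold change, squirrel monkey over macaque. Among genes with an adjusted p below 0.05, the ribosomal protein genes (red) all lie above 0 and the other genes (black) on both sides, with Syn1 at 6.41.

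The number of calls rested on few mice. Without squirrel monkey replicate 1 it was 32, without replicate 2 it was 28 and without replicate 8 it was 51. Without macaque replicate 6 it was 131 and without macaque replicate 10 it was 122. In all, 23 of the 81 genes kept their call whichever mouse was left out of a fit in which they were tested, 18 higher and 5 lower. These were 10 ribosomal protein genes, Syn1, Zfp101, Cadps2, Rab3b, Rprml, Grid1, Cox6a2 and Sema5b among the higher genes, and Olfr1419, Dysf, Mgat5b, Hcn4 and Nptxr among the lower. Dysf was tested in only 13 of the 20 removals. Removing whole batches moved the number further: 2 genes passed without batch C (Syn1 and Dysf), 93 without batch D, 10 without batch E and 0 without batch F, where 1403 genes had an unadjusted p below 0.05. With batch as a random block (limma voom) 44 genes passed, 25 higher and 19 lower, all among the 81. The estimated correlation between mice of a batch in that fit was 0.0053. The fit also differs from the main test in its method, so calls lost there cannot be credited to the block.

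No gene passed between the batches of the same donor, in tests with fewer mice than the donor contrast. The absence of calls there does not show that the batches were alike. Between batches C and D 0 of 12651 genes were called (0%) and 883 had an unadjusted p below 0.05, and between E and F 0 were called (0%) and 399 had one (edgeR on 6 batch levels). The smallest p between C and D belonged to Rpl7, a protein of the large ribosomal subunit, with a log2 fold change of 0.63 in batch C over batch D (adjusted p = 0.401). Gene models without a usual name were passed over in ranking Rpl7 and the genes below. Rpl7a and Rpl19, of the same subunit, followed with 0.81 and 0.71. The lower genes of smallest p in batch C were Olfr1116, an olfactory receptor (-0.87), Ncf1, a subunit of the phagocyte oxidase (-1.05), and Thpo, thrombopoietin (-1.08). Between E and F the leading genes were Ankrd45, Ttc5 and Ankrd37, higher in E by 0.53, 0.49 and 1.02, and Utrn and Cast, lower in E by log2 fold changes of -0.47 and -0.51 (adjusted p = 0.99992 for each, edgeR).

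Syn1 encodes synapsin I, which tethers synaptic vesicles to actin in the nerve terminal. Its level was 7.98 CPM at the lowest, 303 at the median and 350 at the highest in squirrel monkey mice, against 1.42, 2.75 and 5.78 CPM in macaque mice. The groups did not overlap, and 7 of the 8 squirrel monkey mice lay at 269 CPM or more while replicate 5, of batch D, lay near the macaque mice. The log2 fold change was 6.41 ± 0.87 (SE; adjusted p = 0.000100, edgeR). The call did not hold under every setting: the adjusted p was 0.205 with batch as a random block and 0.0806 with sample weights (both limma voom), and 0.0874 without batch F (edgeR). Human mice lay at both levels, with 6 of 12 between 289 and 415 CPM and the other 6 between 1.86 and 11.4 CPM. None of the 32 mice lay between 11.4 and 269 CPM. Its exons overlap those of Araf on the opposite strand, and since strand use in counting is not given in the sources used here, reads of the pair cannot be told apart. The related vesicle protein gene Syn2 went the other way, at 793, 840 and 909 CPM (lowest, median and highest) in squirrel monkey mice and 707, 1143 and 1382 CPM in macaque mice (log2 fold change -0.38 ± 0.09 SE, adjusted p = 0.0222, edgeR). Syn2 no longer passed without squirrel monkey replicate 1, 2 or 8 (adjusted p up to 0.0756), and it overlaps Timp4 on the opposite strand.

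The promoter of Syn1 is shown because the gene had the largest change; it carries the first letters of the binding motif of REST, the repressor of neuronal genes outside neurons, in capitals. The sequence is RefSeq's for GRCm38.p6, chrX:20920899-20921168 on the minus strand, from 250 bases before the start to 20 after it. The counts use another build, GRCm39.
Syn1: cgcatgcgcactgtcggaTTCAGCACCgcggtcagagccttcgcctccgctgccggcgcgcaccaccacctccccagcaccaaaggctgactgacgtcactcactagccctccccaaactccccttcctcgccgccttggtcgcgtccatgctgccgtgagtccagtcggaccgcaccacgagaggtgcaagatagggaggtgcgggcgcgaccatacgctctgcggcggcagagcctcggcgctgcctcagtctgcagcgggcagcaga
The motif searched was TTCAGCACC on either strand (GGTGCTGAA on the other), and 0.377% of 27025 promoters in the table held it within 250 bases before to 20 after the start.

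Zfp101, a zinc finger protein gene, was the most abundant of the genes that rose, at 1171, 1286 and 2013 CPM (lowest, median and highest) in squirrel monkey mice, against 602, 849 and 1075 CPM in macaque mice. All 8 squirrel monkey mice lay above the highest macaque mouse, the 3 highest of them in batch C (log2 fold change 0.79 ± 0.12 SE, adjusted p = 0.00128, edgeR). Human mice averaged 1365 CPM.

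**Figure D2:**
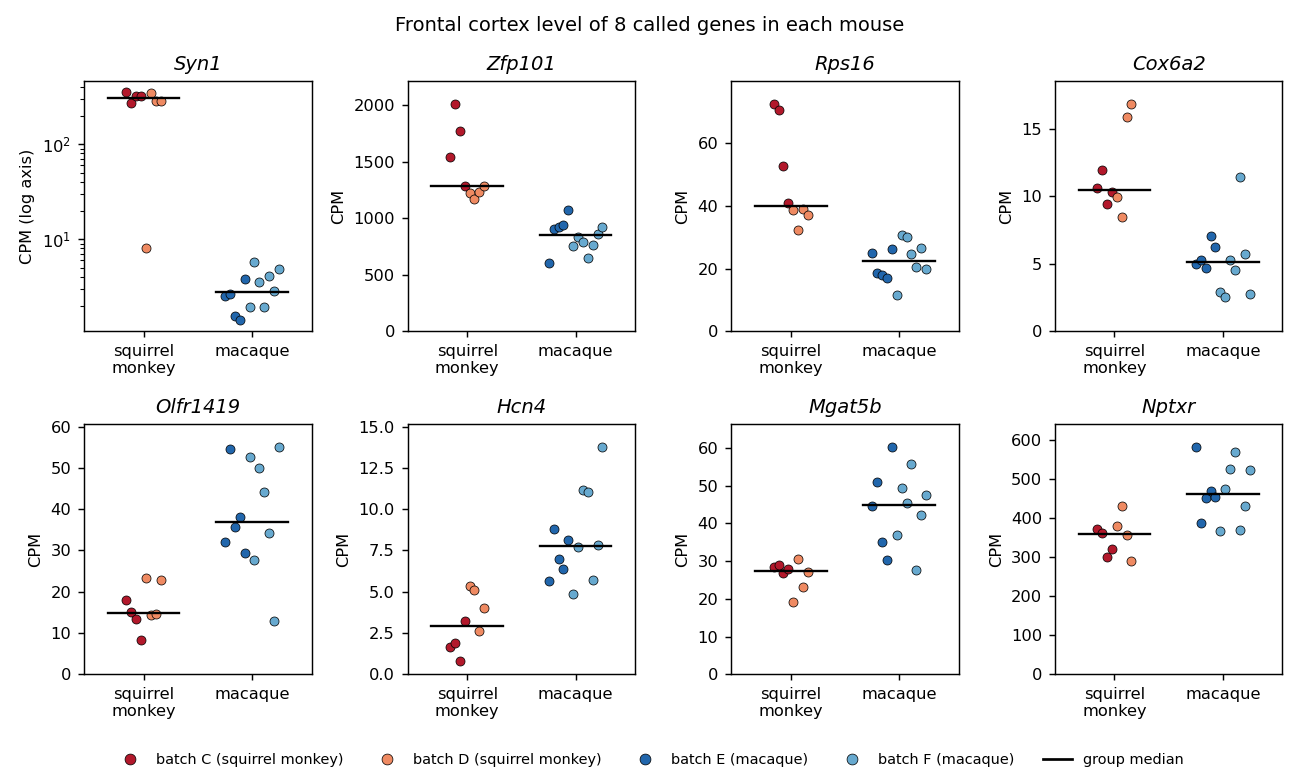
Each point is 1 mouse, squirrel monkey left and macaque right, coloured by batch, with the level in CPM (log axis for Syn1) and a bar at the group median. Syn1, Zfp101, Rps16 and Cox6a2 had higher medians in squirrel monkey mice, and Olfr1419, Hcn4, Mgat5b and Nptxr lower ones.

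Ribosomal protein genes made up 46.9% of the higher calls. Ribosomes join a small and a large subunit, each built of ribosomal RNA and many proteins that cells make in matched amounts. Of 81 ribosomal protein genes tested, 23 rose, 0 fell and 58 did not pass, while 0.387% of all genes tested rose. A log2 fold change above 0 was found for 76 of the 81, against 50.2% of all genes tested. The median was 0.17, against 0.00 over all genes. The genes of the large subunit counted 11 of 48 and those of the small subunit 12 of 33. Those that rose had log2 fold changes of 0.30 to 1.07, led by Rps16, Rpl3, Rps6 and Rpl27.

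Rps16, a protein of the small subunit, had 32.3, 39.9 and 72.5 CPM (lowest, median and highest) in squirrel monkey mice, against 11.7, 22.5 and 30.8 CPM in macaque mice. The groups did not overlap, and the log2 fold change was 1.07 ± 0.19 (SE; adjusted p = 0.00315, edgeR). Rpl3, at the peptidyl transferase centre of the large subunit, had 84.2, 115 and 205 CPM in squirrel monkey mice and 49.7, 71.5 and 91.3 CPM in macaque mice. The ranges overlapped at their edges (log2 fold change 0.90 ± 0.16 SE, adjusted p = 0.00315, edgeR). Rps6, whose phosphorylation is a common readout of mTOR signalling, had 27.2, 43.6 and 79.9 CPM in squirrel monkey mice and 17.9, 25.8 and 32.0 CPM in macaque mice. All 8 squirrel monkey mice lay above the macaque median (log2 fold change 0.89 ± 0.16 SE, adjusted p = 0.00315, edgeR).

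The promoters of Rps16 and Rps6 are shown as examples from the genes that led the group. Rpl3, which stood between them in fold change, is not shown. The core letters of ETS family factors, CGGAAG or CTTCCG on the other strand, are in capitals. Both sequences are RefSeq's for GRCm38.p6. Rps16 is chr7:28350519-28350708 on the plus strand and Rps6 is chr4:86857348-86857517 on the minus strand, each ending 20 bases after the start.
Rps16: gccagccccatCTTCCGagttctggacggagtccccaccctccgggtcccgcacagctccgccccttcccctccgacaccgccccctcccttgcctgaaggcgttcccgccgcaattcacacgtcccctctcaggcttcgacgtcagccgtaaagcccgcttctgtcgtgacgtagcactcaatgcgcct
Rps6: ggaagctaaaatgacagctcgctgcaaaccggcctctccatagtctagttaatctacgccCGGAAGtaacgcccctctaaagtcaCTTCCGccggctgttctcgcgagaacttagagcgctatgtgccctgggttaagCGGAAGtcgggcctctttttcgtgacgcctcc
Of 62 ribosomal protein genes in the promoter table, 62.9% held these letters, against 17.3% of all 27025 promoters. The share was 61.1% of the 18 that rose and 63.6% of the 44 that did not pass.

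Over all 81 genes the summed level was 19928, 22959 and 24481 CPM (lowest, median and highest) in squirrel monkey mice, against 18211, 20221 and 23197 CPM in macaque mice, so that the ranges overlapped over most of their span. Batch means of that sum were 23060 CPM in batch C, 21999 in batch D, 20007 in batch E and 20449 in batch F. The 23 genes were chosen by this contrast, so their sums describe them and support nothing. Their summed level was 2417, 2700 and 4097 CPM in squirrel monkey mice, against 1929, 2124 and 2298 CPM in macaque mice. This sum uses scaled totals, unlike the sum over all 81 genes. Batch C averaged 3425 ± 618 CPM and batch D 2535 ± 113 CPM (SD, n = 4 each), while batch E averaged 2104 ± 107 CPM (SD, n = 5) and batch F 2142 ± 98.8 CPM (SD, n = 7). For all 23 genes the batch C mean exceeded the batch D mean and the highest squirrel monkey mouse was replicate 1 or 2, both of batch C. Over all 81 genes the median log2 fold change was 0.26 for batch C against macaque mice and 0.11 for batch D. Without batch C no ribosomal protein gene passed, without batch D 30 did, without batch E 2 and without batch F 0. Leaving out squirrel monkey replicate 1 or replicate 2 left 10 in each case.

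Human mice had higher means than squirrel monkey mice for all 23 genes, with a summed median of 3789 CPM. Near-identical 3′ copies elsewhere in the genome existed for 12 of the 23, and the counts of these are uncertain. Among all ribosomal protein genes tested, such copies existed for 29 of 48 of the large subunit and 15 of 33 of the small subunit. The median of the longest annotated transcript was 1828 bases for the 49 higher genes, 5200 for the 32 lower genes and 3662 for all genes tested. The part of transcript length in the result was not tested.

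**Figure D3:**
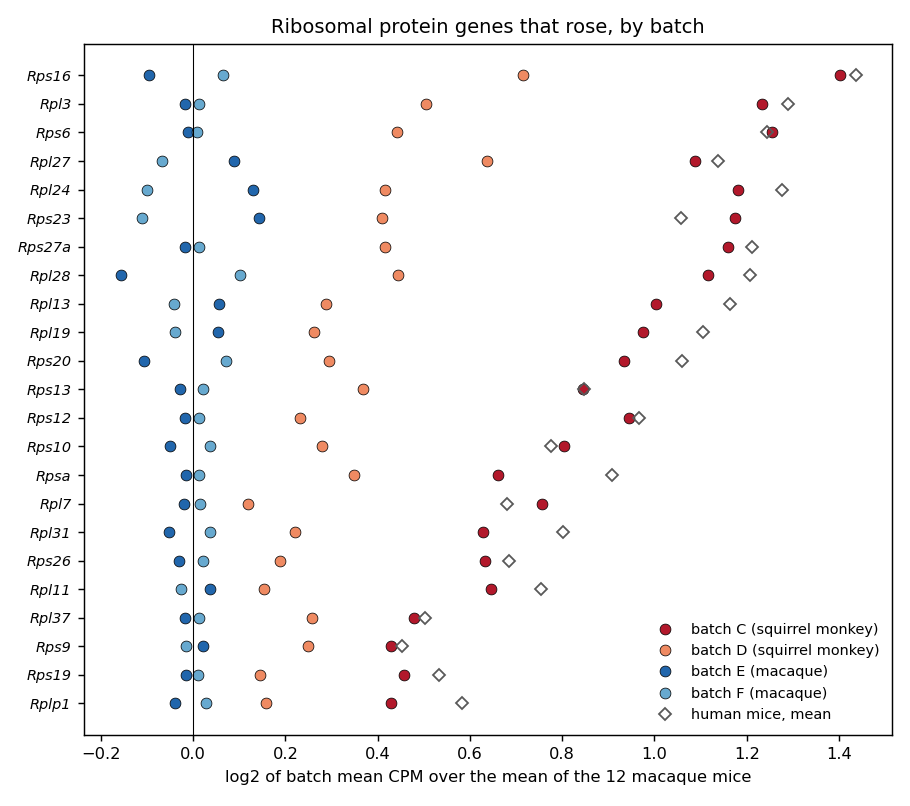
Rows are the 23 ribosomal protein genes that rose, and points give each batch mean in CPM relative to the mean of the 12 macaque mice (log2). Batch C lies right of batch D in all 23, both lie right of batches E and F, and the open diamonds show the mean of the human mice.

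In energy metabolism, 1 gene of each of 2 respiratory chain lists rose, while 0.64% of all genes tested were called in either direction. Complex I of the respiratory chain had 1 gene that rose and 0 that fell among 38 (median 0.04), and complexes III to V had 1 and 0 among 37 (median 0.04). The first was Ndufb4, an accessory subunit, at 27.1, 44.3 and 73.0 CPM (lowest, median and highest) in squirrel monkey mice and 12.7, 27.1 and 34.98 CPM in macaque mice (log2 fold change 0.84 ± 0.18 SE, adjusted p = 0.0180, edgeR). Its call was lost without squirrel monkey replicate 1 or 2 (adjusted p up to 0.0756) and with batch as a random block (adjusted p = 0.0699, limma). The second was Cox6a2, the heart and muscle form of a cytochrome oxidase subunit, which had 8.50, 10.5 and 16.9 CPM in squirrel monkey mice and 2.57, 5.15 and 11.4 CPM in macaque mice (log2 fold change 1.15 ± 0.24 SE, adjusted p = 0.0132, edgeR). It overlaps Itgad on the opposite strand. Of 16 glycolysis genes none passed, and 12 had a log2 fold change below 0 (median -0.06).

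The other genes that rose most were secreted factors, scaffolds and a regulator of redox state. Igf2, the insulin-like growth factor made by meninges and vessels, had 4.73, 7.90 and 13.9 CPM (lowest, median and highest) in squirrel monkey mice, against 1.38, 3.40 and 5.84 CPM in macaque mice. All 8 squirrel monkey mice were above the macaque median (log2 fold change 1.47 ± 0.31 SE, adjusted p = 0.0132, edgeR), and the call was lost without squirrel monkey replicate 2 (adjusted p = 0.0587) and with batch as a random block (adjusted p = 0.0608, limma). Igf2 was the only one of 16 genes of meninges and fibroblasts to pass; the median of that list was 0.26, and the summed level of all 23 genes listed was 204 to 453 CPM in squirrel monkey mice (median 382) and 233 to 564 CPM in macaque mice (median 277). The list of pericytes and smooth muscle had medians of 362 CPM in squirrel monkey mice and 262 CPM in macaque mice, and 0 of its 11 genes tested passed. The part of these cells in the level of Igf2 was not tested. Of the 12 genes of the insulin-like growth factor system Igf2 was again the only one, with a median of 0.00. Among all genes tested 0.64% were called in either direction.

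Sema5b, a transmembrane guidance molecule, had 16.2, 28.7 and 42.5 CPM in squirrel monkey mice and 5.84, 12.8 and 24.3 CPM in macaque mice (log2 fold change 1.01 ± 0.22 SE, adjusted p = 0.0180, edgeR). It was the only one of 25 semaphorin and plexin genes to pass, while 0.64% of all genes tested were called in either direction. Csrp1, a LIM-domain protein of the actin cytoskeleton, had 22.5, 30.4 and 66.0 CPM in squirrel monkey mice and 12.4, 18.2 and 24.1 CPM in macaque mice (log2 fold change 1.005 ± 0.22 SE, adjusted p = 0.0190, edgeR), with the call lost without squirrel monkey replicate 1 or 2 (adjusted p up to 0.0773) and with batch as a random block (adjusted p = 0.0699, limma). Cort, the inhibitory neuropeptide cortistatin of a group of interneurons, had 12.0, 20.3 and 25.5 CPM in squirrel monkey mice and 3.90, 10.6 and 18.5 CPM in macaque mice. Its change of 0.98 ± 0.23 (SE, log2; adjusted p = 0.0254, edgeR) no longer passed when squirrel monkey replicate 3 or 8 was left out (adjusted p up to 0.0598), and it was the only one of 24 interneuron genes to pass (median 0.01).

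Akap12, a scaffold for protein kinase A, had 22.01, 58.2 and 100.3 CPM in squirrel monkey mice and 10.7, 25.0 and 62.3 CPM in macaque mice (log2 fold change 1.03 ± 0.25 SE, adjusted p = 0.0370, edgeR). Here 6 of 8 squirrel monkey mice were above the macaque median, and the call was lost in 11 of 20 removals of 1 mouse, those of squirrel monkey replicates 1, 2, 3, 6, 7 and 8 and macaque replicates 1, 3, 5, 8 and 9 (adjusted p up to 0.0885), and with batch as a random block (adjusted p = 0.0699, limma). Txnip, an inhibitor of thioredoxin that is induced by glucose and by glucocorticoids, had 14.2, 41.6 and 59.2 CPM in squirrel monkey mice and 8.83, 15.6 and 36.01 CPM in macaque mice. Its log2 fold change was 1.11 ± 0.26 (SE; adjusted p = 0.0264, edgeR), and the call was lost on removal of squirrel monkey replicate 1, 2, 7 or 8 and of macaque replicate 8 (adjusted p up to 0.107), and with batch as a random block (adjusted p = 0.0850, limma). Of 24 glucocorticoid response genes Txnip was the only one to rise and 0 fell, while 0.387% of all genes tested rose. Of the 24, 22 were above 0, against 50.2% over all genes, and the median was 0.34. The summed level of all 26 genes listed was 1520, 2314 and 2898 CPM in squirrel monkey mice and 1361, 1644 and 2313 CPM in macaque mice. Mt2 (0.59) and Fkbp5 (0.45) did not pass (adjusted p = 0.0671 and 0.124, edgeR).

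Among genes of vesicle release, Rab3b, a small GTPase of synaptic vesicles, rose. It had 91.9, 127 and 141 CPM in squirrel monkey mice and 70.1, 82.8 and 113 CPM in macaque mice (log2 fold change 0.53 ± 0.10 SE, adjusted p = 0.00651, edgeR). Of 32 vesicle and release genes, 2 rose (Syn1 and Rab3b) and 1 fell (Syn2), with a median of -0.04. Over all genes tested 0.64% were called in either direction. Cadps2, which primes dense-core vesicles and stood outside that list, had 61.2, 75.6 and 85.7 CPM in squirrel monkey mice and 32.5, 49.7 and 73.4 CPM in macaque mice (log2 fold change 0.64 ± 0.12 SE, adjusted p = 0.00315, edgeR). The glutamate receptor gene of the delta family, Grid1, rose by 0.35 on the log2 scale and kept its call in all 20 removals. Olfm3, an olfactomedin, rose by 0.74 and lost its call without squirrel monkey replicate 1 or 2 (adjusted p up to 0.0779, edgeR).

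Channel genes were among those that fell most. Scn7a, a sodium-sensing channel, had 0.66, 4.24 and 12.8 CPM (lowest, median and highest) in squirrel monkey mice, against 0.97, 18.5 and 30.5 CPM in macaque mice. All 8 squirrel monkey mice lay below the macaque median, but the ranges overlapped over most of the squirrel monkey range (log2 fold change -1.82 ± 0.43 SE, adjusted p = 0.0321, edgeR). The call was lost in 12 removals, those of squirrel monkey replicates 1, 2, 3, 4, 7 and 8 and macaque replicates 3, 5, 7, 8, 9 and 12 (adjusted p up to 0.0954), and with batch as a random block (adjusted p = 0.154, limma). Of 10 sodium channel genes it was the only one to pass, and 9 were below 0 (median -0.09). Of all genes tested 0.64% were called in either direction, and 50.2% had a log2 fold change above 0.

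Hcn4, a pacemaker channel opened by hyperpolarisation, had 0.79, 2.94 and 5.32 CPM in squirrel monkey mice and 4.87, 7.78 and 13.8 CPM in macaque mice. The ranges met only at their edges (log2 fold change -1.40 ± 0.28 SE, adjusted p = 0.00853, edgeR), and the call stood in all 20 removals. Of 5 genes of the HCN list it was the only one to pass, and 2 were below 0 (median 0.03). Cacna1g, a low-voltage-activated calcium channel, had 27.7, 41.9 and 52.7 CPM in squirrel monkey mice and 46.4, 56.2 and 77.1 CPM in macaque mice (log2 fold change -0.45 ± 0.11 SE, adjusted p = 0.0468, edgeR), and was the only one of 18 calcium channel genes to pass. Grin3a, an NMDA receptor subunit, was the only one of 15 ionotropic glutamate receptor genes to pass (log2 fold change -0.48 ± 0.12 SE, adjusted p = 0.0413, edgeR). The share called in either direction over all genes tested was 0.64%. Cacna1g lost its call without squirrel monkey replicate 1, 2, 3, 7 or 8 or macaque replicate 1, 3, 4, 8, 9 or 12 (adjusted p up to 0.129), and Grin3a without squirrel monkey replicate 1, 2, 4, 7 or 8 or macaque replicate 1, 3, 7, 8, 9 or 11 (adjusted p up to 0.121). Cnr1, the cannabinoid receptor of nerve terminals, fell by 0.33 on the log2 scale. It lost its call without squirrel monkey replicate 1, 2, 3, 4, 7 or 8 or macaque replicate 1, 3, 5, 7, 8, 9 or 12 (adjusted p up to 0.117). With batch as a random block Cacna1g, Grin3a and Cnr1 had adjusted p = 0.0710, 0.0699 and 0.0703 (limma).

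Olfr1419, an olfactory receptor gene, had 8.42, 14.8 and 23.3 CPM in squirrel monkey mice, against 12.8, 36.98 and 55.05 CPM in macaque mice; 1 macaque mouse of batch F lay as low as the squirrel monkey mice (log2 fold change -1.24 ± 0.23 SE, adjusted p = 0.00450, edgeR). Mgat5b, a brain glycosyltransferase, had 19.3, 27.4 and 30.6 CPM in squirrel monkey mice and 27.7, 44.9 and 60.2 CPM in macaque mice (log2 fold change -0.74 ± 0.14 SE, adjusted p = 0.00470, edgeR). Nptxr, the receptor of neuronal pentraxins at excitatory synapses, had 289, 360 and 430 CPM in squirrel monkey mice and 368, 462 and 582 CPM in macaque mice (log2 fold change -0.41 ± 0.09 SE, adjusted p = 0.0130, edgeR). These calls stood in all 20 removals. Exons of Nptxr overlap those of Npcd on the same strand, so its counts are uncertain. Dysf, dysferlin of membrane repair, had a log2 fold change of -1.84 at a level of 0.66 to 4.89 CPM in squirrel monkey mice and 0.97 to 9.09 CPM in macaque mice.

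Ace, the angiotensin-converting enzyme of vessels and of some neurons, had 3.96, 6.82 and 10.2 CPM in squirrel monkey mice and 4.08, 15.6 and 21.8 CPM in macaque mice (log2 fold change -1.03 ± 0.23 SE, adjusted p = 0.0217, edgeR). It was the only one of 25 endothelial genes and of 4 genes of the renin-angiotensin system to pass. Among all genes tested 0.64% were called in either direction. The call of Ace was lost without squirrel monkey replicate 4 or 7 (adjusted p up to 0.0577) and with batch as a random block (adjusted p = 0.0850, limma). Ppp2r1b, a scaffold subunit of protein phosphatase 2A, had a median of 5.25 CPM in squirrel monkey mice and 10.1 CPM in macaque mice (log2 fold change -0.96 ± 0.21 SE, adjusted p = 0.0190, edgeR), lost without squirrel monkey replicate 2 (adjusted p = 0.0707). Sorcs1, a sorting receptor of neurons, had a median of 31.6 CPM in squirrel monkey mice and 52.7 CPM in macaque mice (log2 fold change -0.77 ± 0.18 SE, adjusted p = 0.0294, edgeR). It lost its call without squirrel monkey replicate 1, 2, 3, 4 or 7 or macaque replicate 3, 8, 9 or 12 (adjusted p up to 0.0984). Ptpro, a receptor tyrosine phosphatase, had a median of 13.4 CPM in squirrel monkey mice and 23.5 CPM in macaque mice (log2 fold change -0.64 ± 0.15 SE, adjusted p = 0.0365, edgeR), with the call lost on removing squirrel monkey replicate 1, 3, 5, 7 or 8 or macaque replicate 3, 7, 8, 9 or 12 (adjusted p up to 0.0892). Krt77, a keratin gene, had a median of 22.8 CPM in squirrel monkey mice and 33.3 CPM in macaque mice (log2 fold change -0.57 ± 0.14 SE, adjusted p = 0.0321, edgeR), and lost its call on removing squirrel monkey replicate 1, 2, 3, 4, 7 or 8 or macaque replicate 1, 9 or 12 (adjusted p up to 0.102). Sccpdh, an oxidoreductase-like protein, and Ampd2, which deaminates AMP, fell by 0.68 and 0.60 on the log2 scale. Sccpdh no longer passed without squirrel monkey replicate 1, 2, 4 or 7, nor Ampd2 without squirrel monkey replicate 1, 2, 7 or 8 (adjusted p up to 0.0718 for Sccpdh and 0.0739 for Ampd2, edgeR). With batch as a random block Sorcs1, Ptpro and Ampd2 did not pass either (adjusted p = 0.0831, 0.0703 and 0.0699, limma).

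Neurod6, a transcription factor of cortical excitatory neurons, had 117, 143 and 199 CPM in squirrel monkey mice, against 152, 248 and 324 CPM in macaque mice (log2 fold change -0.64 ± 0.14 SE, adjusted p = 0.0217, edgeR), lost without squirrel monkey replicate 2, 7 or 8 (adjusted p up to 0.0756). Rgs4, a brake on G protein signalling, fell by 0.53 on the log2 scale and Bmpr2, a receptor of bone morphogenetic proteins, by 0.26. Rgs4 lost its call without squirrel monkey replicate 1, 2 or 7 or macaque replicate 8 (adjusted p up to 0.0773), and Bmpr2 without squirrel monkey replicate 1 or 2 (adjusted p up to 0.0756, edgeR).

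Layer markers had list medians of opposite sign. In bulk tissue, fewer cells of a type and less RNA per cell cannot be told apart. Of 20 genes of the upper cortical layers, 0 passed, 15 were below 0 and the median was -0.32. Their summed level was 2633, 2784 and 3453 CPM (lowest, median and highest) in squirrel monkey mice, against 3289, 3472 and 4099 CPM in macaque mice. Cux2 (-0.78), Rgs8 (-0.49), Wfs1 (-0.73) and Lmo4 (-0.74) had the smallest p (adjusted p = 0.0895, 0.0959, 0.0967 and 0.108, edgeR). Of 22 genes of the deep layers 0 passed (median 0.10).

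Of 11 genes of the subplate, layer 6b and claustrum, 2 rose and 0 fell, with a median of 0.56. Over all genes tested 0.387% rose. Nr4a2, a nuclear receptor of those cells that neuronal activity also induces, had 21.3, 38.4 and 44.7 CPM in squirrel monkey mice and 8.83, 18.4 and 37.9 CPM in macaque mice (log2 fold change 0.84 ± 0.20 SE, adjusted p = 0.0324, edgeR). Nxph3, a neurexophilin that binds neurexins, had 5.10, 15.8 and 20.1 CPM in squirrel monkey mice and 1.299, 5.39 and 12.8 CPM in macaque mice (log2 fold change 1.21 ± 0.29 SE, adjusted p = 0.0365, edgeR). Nr4a2 lost its call without squirrel monkey replicate 1, 2, 4, 7 or 8 or macaque replicate 1, 3, 5, 8, 9 or 12 (adjusted p up to 0.102). Nxph3 lost it without squirrel monkey replicate 1, 2, 3, 4, 7 or 8 or macaque replicate 1, 3, 5, 7, 8, 9 or 12 (adjusted p up to 0.112) and with batch as a random block (adjusted p = 0.0802, limma). Ccn2, another marker of layer 6b, had a log2 fold change of 1.12 and did not pass (adjusted p = 0.0824, edgeR). The summed level of all 14 genes listed, 3 of them too low to be tested, was 531, 622 and 696 CPM in squirrel monkey mice and 391, 492 and 636 CPM in macaque mice.

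Myelin genes ranged widely between mice of each group. Of 30 genes of myelin and oligodendrocytes 0 passed, although 29 were above 0, against 50.2% of all genes tested, with a median of 0.81. The summed level of all 32 genes listed was 2023, 3296 and 8298 CPM in squirrel monkey mice, against 1548, 2009 and 6121 CPM in macaque mice, and squirrel monkey replicates 1 and 8 and macaque replicate 6 stood above all others. Without squirrel monkey replicates 1 and 8 the list's median was 0.29 and 16 genes were called in all. Replicate 1 was also the highest mouse in the summed ribosomal genes that rose, with 4097 CPM, while replicate 8 had 2674 CPM; the part of the myelin level in the calls was not tested. Of 20 microglial genes and 21 astrocyte genes 0 passed, with medians of -0.07 and 0.10.

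The remaining lists held few calls or none, while 0.64% of all genes tested were called in either direction. Nr4a2 was the only one of 24 immediate early genes to pass (median -0.04), Cort the only one of 23 neuropeptide and granin genes (-0.02), Sorcs1 the only one of 5 SorCS and sortilin receptors (-0.10) and Txnip the only one of 7 alpha-arrestins and Mondo factors (0.33). None passed among 36 translation factors (median 0.04), 31 proteasome genes (-0.0048), 19 heat shock and chaperone genes (-0.0032), 20 clock genes (-0.06) or 23 genes of cholesterol synthesis (0.04). The same was true of 39 potassium channel genes (median -0.08), 14 GABA receptor genes (-0.10), 14 interferon and MHC class I genes (0.11) and 9 genes of oligodendrocyte precursors (-0.11). For neighbouring regions, 0 passed of 11 striatal genes (median 0.10), 11 thalamic genes (0.16), 5 olfactory genes (-0.21) and 4 choroid plexus genes (0.24).

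**Figure D4:**
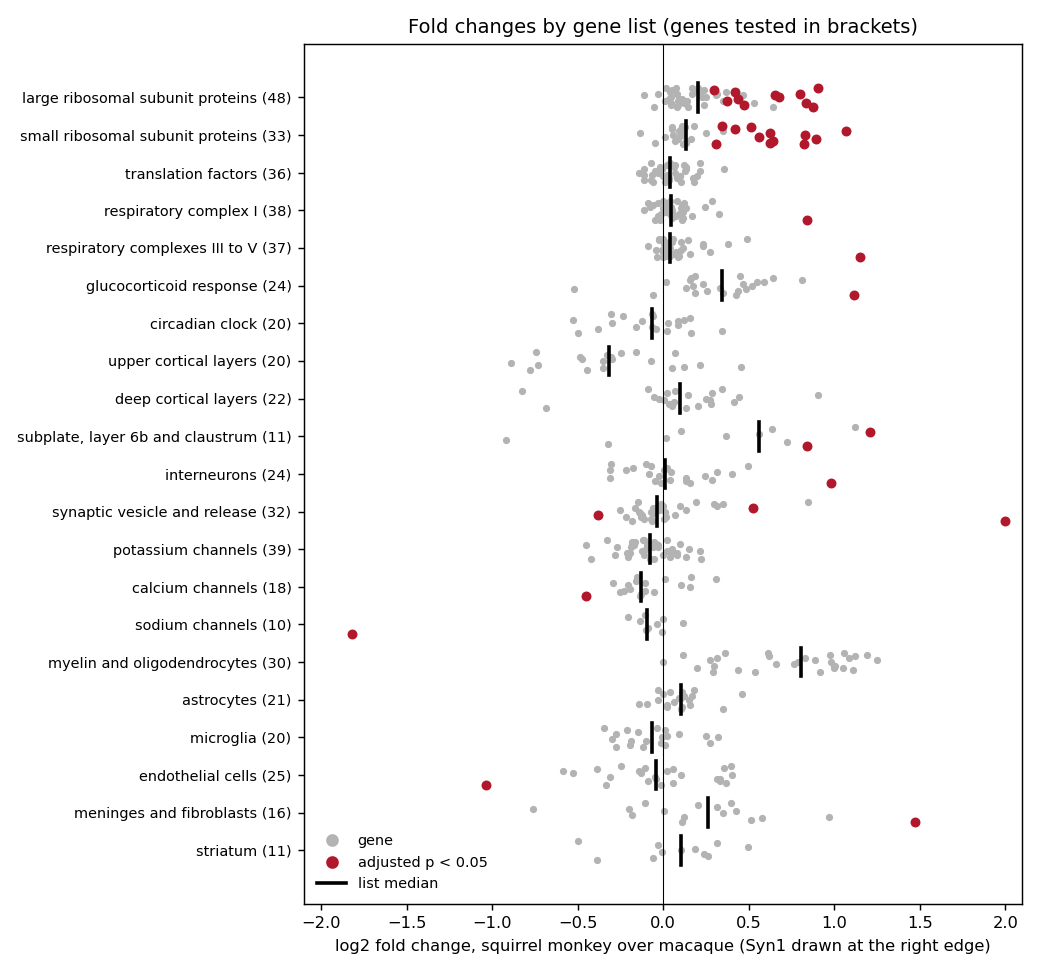
Each point is a gene and each black bar the median of its list, on the log2 fold change, squirrel monkey over macaque; red points have an adjusted p below 0.05. The medians lie between -0.32 for the upper cortical layers and 0.81 for myelin, and Syn1 is drawn at the edge.

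**Figure D5:**
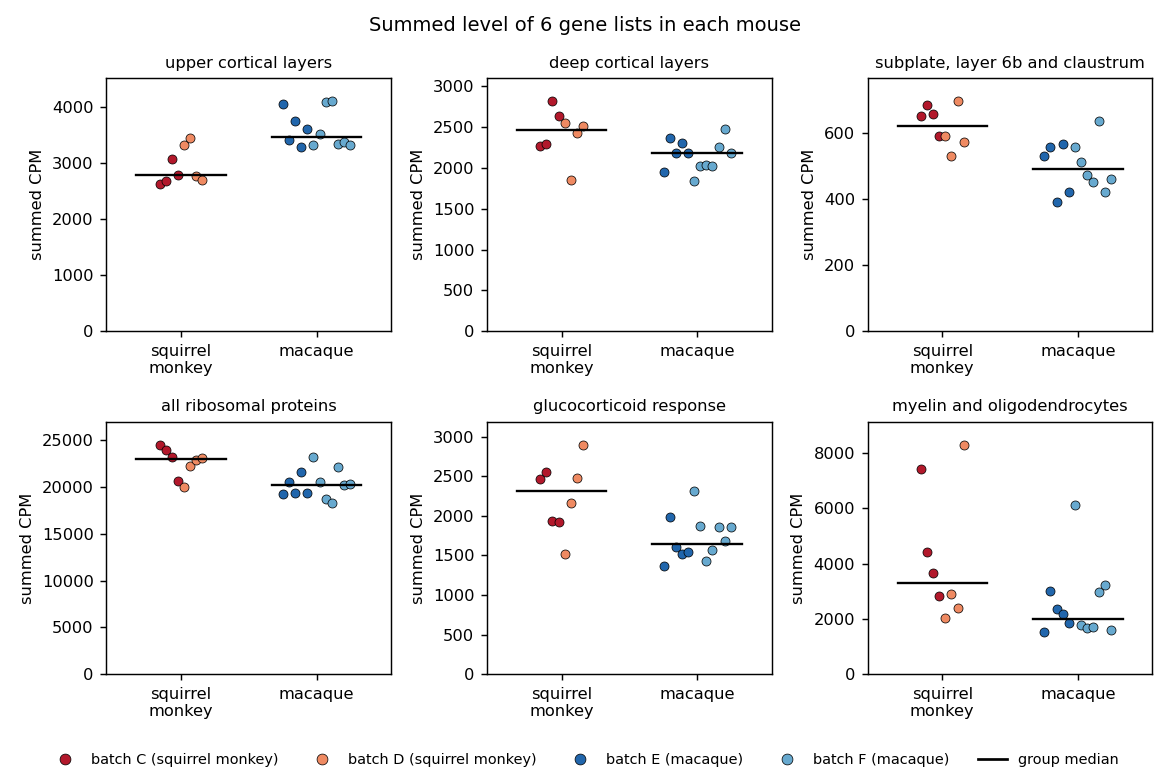
Each point is the summed CPM of a gene list in 1 mouse, squirrel monkey left and macaque right, coloured by batch, with bars at group medians. The upper-layer sums are lower in squirrel monkey mice (medians 2784 against 3472 CPM), while the 6b, ribosomal and glucocorticoid medians are higher and the myelin sums are wide in both groups.

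Squirrel monkey mice were also set against human mice, where 17 genes passed (0.134% of 12651), 15 higher and 2 lower. None of the 81 genes was among them. Spc24, a kinetochore protein, led with 105 ± 16.2 CPM in squirrel monkey mice (SD, n = 8) and 71.5 ± 9.82 CPM in human mice (SD, n = 12; log2 fold change 0.56, adjusted p = 0.000678, edgeR), and the chromatin remodeller Atrx (0.29) and the nucleolar protein Ncl (0.29) followed. The 2 contrasts share the squirrel monkey mice.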

How the data were processed

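The deposited values are the authors' raw counts by Ensembl gene from TagSeq single reads, per the labels' protocols. GRCm39 is the build in the submitters' processing notes; aligner, counter, strand use and duplicate handling: not given in the sources used here. Those counts filled 23958 rows, of which 76 had no symbol (0.0310% of counts), and 3 columns of counts matched no sample and were not used. The design text of the series leaves ribosomal genes out of its gene count; they were kept here. Mice were grouped by the donor label. Counts were filtered with filterByExpr (minimum count 10, minimum total 15), scaled with TMM and tested with edgeR 4.0.16 in R 4.3.3 (quasi-likelihood, all 32 mice, donor group as the only term), with Benjamini-Hochberg adjustment over 12651 genes and a threshold of 0.05 (common dispersion as a coefficient of variation, 0.138). No 2 libraries were identical, and chi-square per degree of freedom over 94 same-group pairs was 1.46 to 5.00. The test was tried on simulated counts. Genes described in full are the 12 higher and the 12 lower with the largest fold change, a mean of at least 5 CPM and separated batch means; genes outside these were named by list or call. A few genes and 1 list are not reported here. Copies were sought in the last 300 bases of GENCODE M21 transcripts (100 bases at 95% identity). Alternatives used DESeq2 1.42.0 and limma 3.58.1, other scalings, filters and sample sets. The comparison and the gene lists were chosen with earlier results of these data known. Lists are described by counts and medians, with no test.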

Additional observations from a re-analysis of the deposited data

Results flagged for a closer look

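In 25 groups of squirrel monkey values (24 genes described in full and the ribosomal sum), 3 held 1 mouse far from the others by Dixon's criterion, which chance alone meets in about 1 of 20 groups. Syn1 in squirrel monkey replicate 5 was 7.98 CPM, with the other 7 mice at 269 CPM or more. Sccpdh in squirrel monkey replicate 6 was 114.8 CPM, and Scn7a in the same mouse was 12.76 CPM, each the highest of its group.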

How the results depend on the processing

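The counts of 49 higher and 32 lower genes stayed within 1.5 times under DESeq2 size factors (51 and 30), library totals (58 and 25), every gene with any count (47 and 37), a minimum count of 30 (55 and 27) and 6 batch levels (52 and 32). They were 94 and 84 with the 20 mice alone, 75 and 81 by the DESeq2 Wald test, 128 and 164 by limma voom with sample weights, 25 and 19 with batch as a random block, 110 and 93 on counts summed per batch, 1 and 1 without batch C, 76 and 17 without batch D, 5 and 5 without batch E, 0 and 0 without batch F, and 13 and 3 without squirrel monkey replicates 1 and 8; the cause was not tested. Leaving out 1 mouse gave 21 to 68 higher and 7 to 70 lower genes. Genes between squirrel monkey and human mice numbered 17, 1 with every gene and 46 at a minimum count of 30. Ribosomal genes numbered 12 with the batch block and 15 on batch sums. No paired analysis was possible because replicate numbers follow accession order and no label pairs mice. Batch and donor cannot be told apart, and permuting 2 batches against 2 cannot give a p below 0.333. At 1035036 to 1673882 counts a mouse, changes of genes near 5 CPM are imprecise.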
